A study of Homo sapiens with 8 samples.

Results

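The genes described here encode the machinery that copies DNA in S phase. The list holds 43 genes: 4 of origin licensing, the 6 subunits of the MCM2-7 helicase, 6 of helicase activation, 5 of the sliding clamp and its loader, 7 of the replicative polymerases and primase, 2 of lagging-strand maturation, 3 of replication protein A, 4 of deoxynucleotide supply, 3 of chromatin assembly and maintenance methylation, and 3 E2F transcription factors. They were found on the array by symbol, and the probe set with the highest mean over the 8 arrays stood for a gene. All 43 were measured, among 18244 genes. They had 104 probe sets, with more than 1 for 30 of them. All 43 lay above the spike-in background on every array.

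Expression was measured on single-colour arrays. The cells were A549 and PC9, 2 established lines from human lung adenocarcinomas. Cells of each line had been infected with a retrovirus that carried EN2, the gene of an engrailed homeobox transcription factor, or the control Neo vector, made in 293FT packaging cells, and stable cells were selected with a drug given as genemycin, so the control cells too went through infection and selection. The sources used here do not name the promoter that drove EN2, nor say whether the stable cells were clones or pools. The 4 groups were A549 with EN2, A549 with vector, PC9 with EN2 and PC9 with vector, with 2 arrays each. F-12K was the medium of A549 and DMEM that of PC9, so line and medium cannot be told apart.

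Replication origins are licensed in G1, when ORC, CDC6 and CDT1 load the MCM2-7 helicase onto DNA. At the start of S phase CDC45 and the GINS complex join MCM2-7 to form the active helicase, and the polymerases, the PCNA clamp and the single-strand binding protein RPA follow it. Many of these genes are transcribed at the G1/S boundary by E2F factors once RB is phosphorylated, so their summed mRNA is widely used as a readout of proliferation. In bulk RNA, fewer cells in S phase and less RNA of these genes per cell cannot be told apart.

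The sequence before the transcription start of the genes carries E2F letters more often than that of the array's genes as a whole. The 4 words searched were TTTCCCGC, TTTCGCGC, TTTGCCGC and TTTGGCGC, on both strands, in the 250 bases before the start as given by RefSeq (GRCh38.p14). Of the 37 members with a promoter entry, 15 (40.5%) held at least 1 word, against 4.73% of 14494 array genes. The CCAAT box, which NF-Y binds, was found in 22 of 37 (59.5%), against 40.5% of array genes, and the word TTTGAA, the core of the CHR element of late cell cycle promoters, in 1 of 37 (2.7%), against 14.2%. These matches are descriptions of letters. The 150 bases directly before the start are shown for GINS2, POLE2 and CDC6, the 3 members that differed most between arrays of A549, and for MCM6 and E2F1, which hold several E2F words. Capitals mark E2F words and CCAAT boxes on either strand. In MCM6 a pair of E2F words overlap, and the POLE2 stretch holds neither motif.
GINS2, chr16:85688955-85689104, minus strand: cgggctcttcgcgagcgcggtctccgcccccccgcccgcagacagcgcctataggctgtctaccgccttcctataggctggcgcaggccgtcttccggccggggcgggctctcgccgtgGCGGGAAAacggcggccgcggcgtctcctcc
POLE2, chr14:49688215-49688364, minus strand: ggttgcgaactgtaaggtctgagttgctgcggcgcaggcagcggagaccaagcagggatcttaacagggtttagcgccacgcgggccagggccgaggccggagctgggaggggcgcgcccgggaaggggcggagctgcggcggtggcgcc
CDC6, chr17:40287729-40287878, plus strand: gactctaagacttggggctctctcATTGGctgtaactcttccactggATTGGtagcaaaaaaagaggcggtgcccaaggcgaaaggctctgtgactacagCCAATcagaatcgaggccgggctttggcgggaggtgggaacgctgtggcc
MCM6, chr2:135876444-135876593, minus strand: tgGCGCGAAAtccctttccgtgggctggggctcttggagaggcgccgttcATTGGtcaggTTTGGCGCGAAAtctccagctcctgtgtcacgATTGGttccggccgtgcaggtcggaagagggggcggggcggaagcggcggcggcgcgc
E2F1, chr20:33686386-33686535, minus strand: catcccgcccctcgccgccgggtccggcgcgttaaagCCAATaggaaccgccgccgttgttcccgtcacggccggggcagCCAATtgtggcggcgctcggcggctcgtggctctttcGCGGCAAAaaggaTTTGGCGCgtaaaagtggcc

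EN2 itself checked the labels. On the log2 scale used for all signals here, EN2 rose in A549, where it read 7.71 and 7.62 with the EN2 virus, against 6.48 and 6.57 with vector (log2 change 1.15 ± 0.091 SE, adjusted p = 0.00028 by limma over all genes). The call ended with the signal of the 18S rRNA control probe sets as a covariate (1.11, limma adjusted p = 0.13). That signal was lower on both A549 EN2 arrays than on both A549 vector arrays, so the covariate is separated from EN2 only in part. The call also ended when EN2 replicate 1 and vector replicate 2, at the ends of that signal in A549, were left out. That left 1 array against 1, with a change of 1.15. The dimmer of the 2 EN2 probe sets did not pass, with 6.46 and 6.34 with EN2 in A549, against 6.33 and 6.38 with vector (log2 change 0.050, adjusted p = 0.931), and the mean of both gave 0.60 (adjusted p = 0.0179). In PC9 the brighter probe set read 6.24 and 6.39 with EN2, against 5.86 and 5.78 with vector, a log2 change of 0.50 that did not pass (adjusted p = 0.0801). Of the epithelial markers fixed for both lines, all 6 lay above the spike-in background on all 8 arrays. The leukocyte markers PTPRC and LYZ and the fibroblast markers DCN and LUM lay below it on all 8, while CD3E and CD68 of the leukocyte list and COL1A1, COL1A2 and PDGFRB of the fibroblast list lay above it on all 8. Of the endothelial markers, PECAM1, VWF and KDR lay above it on all 8 and CDH5 on 4. Arrays of a group are not said to come from separate cultures, so a p-value here weighs a change against a spread that may be technical.

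The first comparison asked which replication genes changed with EN2 in each line. None of the 43 was called in A549 or in PC9 (limma, Benjamini-Hochberg adjusted p below 0.05 over 18244 genes). Of all genes 2.72% were called in A549, with 1.57% higher and 1.15% lower, and 0.367% in PC9, with 0.148% higher and 0.219% lower. At an unadjusted p below 0.05, 3 members were lower in A549 (CDC6, PRIM2 and CDC45), none was higher, and none passed in PC9. Of all genes, 7.54% were lower and 9.87% higher by this threshold in A549, and 3.2% lower and 3.55% higher in PC9, so the 3 members are near the share of all genes. The median log2 change of the members was −0.072 in A549 and −0.078 in PC9, where the median of all genes was −0.0015 and 0.0040. Of the members, 28 were negative and 15 positive in A549, and 38 were negative and 5 positive in PC9. The difference of the EN2 change between the lines was called for none of the 43 either, against 0.784% of all genes, with 0.46% higher and 0.323% lower in A549 than in PC9, and 0 of them had an unadjusted p below 0.05, against 6.37% of all genes higher and 5.55% lower in A549 than in PC9.

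Missing the threshold does not show that the genes were equal, and the width of the intervals says how much was left undetected. The 95% interval of the log2 change had a median half-width of 0.31, from 0.14 for the narrowest to 0.82 for the widest member. In PC9 it lay within a 1.5-fold change in either direction for 40 members and within a 2-fold change for 42. In A549 these counts were 32 and 40, and the 3 members whose interval passed a 2-fold decrease were GINS2, CDC6 and POLE2.

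**Figure D1:**
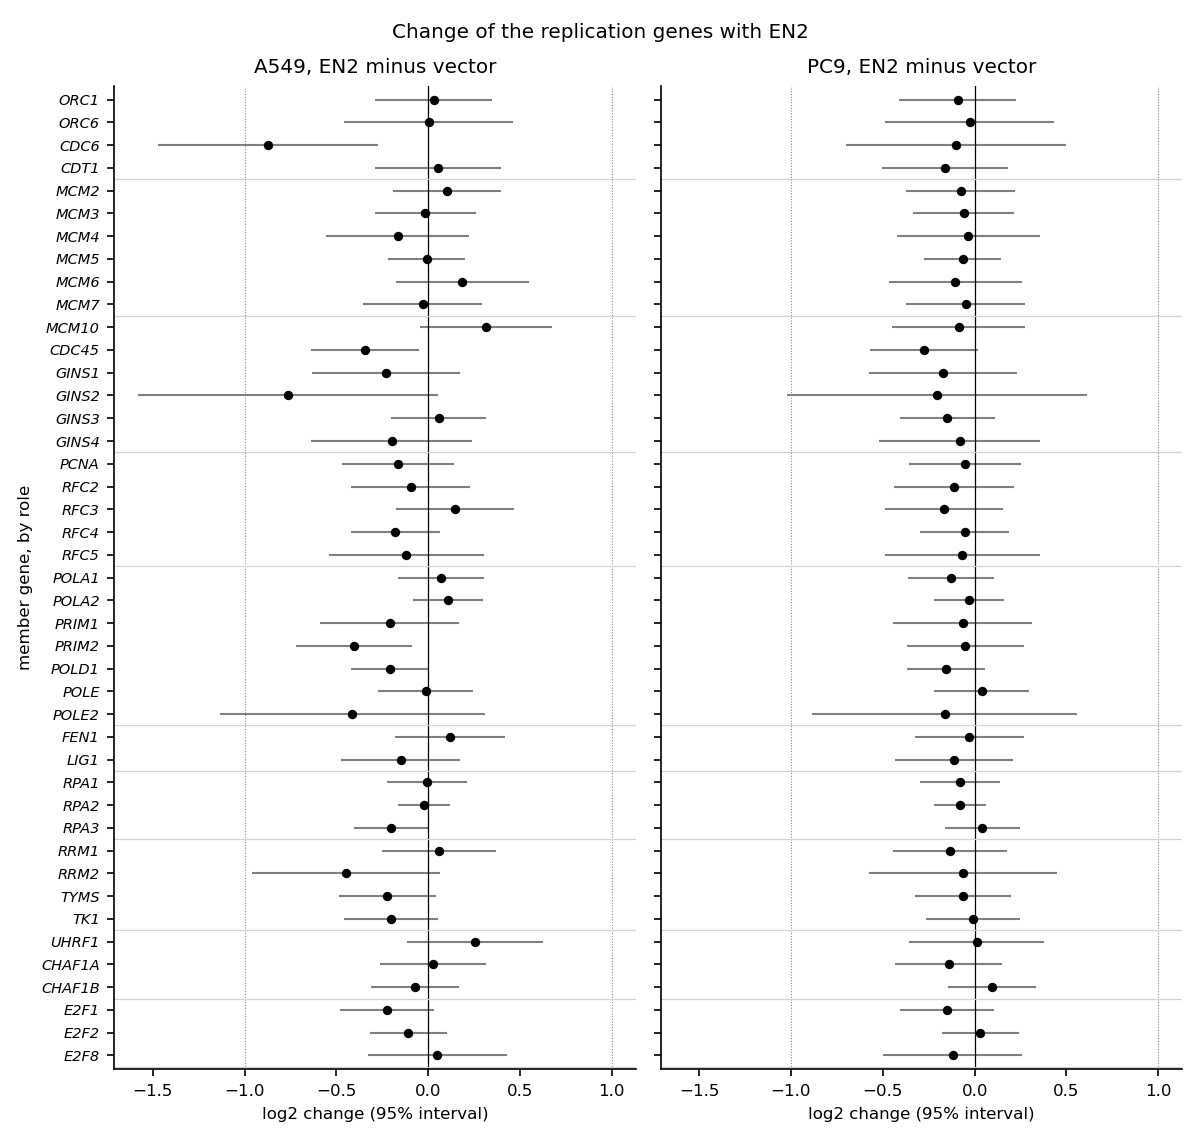
Log2 change of each of the 43 replication genes, EN2 minus vector, in A549 (left) and PC9 (right). Points are limma estimates and bars their 95% intervals, dotted lines mark a 2-fold change, and grey lines separate the roles. In PC9 most points lie slightly below 0 (38 of 43), and in A549 CDC6 and GINS2 lie furthest to the left at −0.87 and −0.76.

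Among the licensing genes, CDC6, the ATPase that works with ORC to load MCM2-7, showed the largest A549 change of all members. With EN2 it read 8.93 and 10.02, against 10.30 and 10.39 with vector. Both EN2 arrays lay below both vector arrays, but the gap between the EN2 arrays was larger than the distance between the group means. The log2 change was −0.87 ± 0.27 SE (interval −1.47 to −0.27, adjusted p = 0.126). Its other probe set gave −0.90, from 7.81 and 8.96 with EN2 and 9.21 and 9.37 with vector. Without EN2 replicate 1 the change was −0.33 (adjusted p = 0.379), and without EN2 replicate 2 it was −1.42 and was called (adjusted p = 0.0014). In PC9 CDC6 read 9.40 and 9.67 with EN2, against 9.70 and 9.57 with vector, and the groups overlapped. CDT1, the loading partner of CDC6, read 8.14 and 8.37 with EN2 in PC9, against 8.45 and 8.39 with vector (log2 change −0.16). ORC1, the large ATPase subunit of the origin recognition complex, and ORC6, its smallest subunit, had A549 changes of 0.030 and 0.0023.

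The MCM2-7 subunits, which form the ring at the core of the helicase, had A549 changes between −0.17 for MCM4 and 0.19 for MCM6. MCM4 read 8.74 and 9.24 with EN2, against 8.95 and 9.36 with vector. MCM6 read 8.10 and 8.40, against 7.91 and 8.22. In both genes the groups overlapped. In PC9 all 6 were negative, from −0.10 for MCM6 to −0.034 for MCM4, and none passed.

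Of the genes that turn the loaded ring into a running helicase, GINS2, a subunit of the GINS tetramer, had the widest spread. In A549 it read 6.40 and 7.46 with EN2, against 7.21 and 8.18 with vector. Replicate 2 with EN2 lay above replicate 1 with vector, so the groups overlapped, and the log2 change of −0.76 ± 0.36 SE did not pass (adjusted p = 0.323). Leaving out 1 array gave changes of GINS2 between −1.29 and −0.23, and the 18S rRNA covariate gave 1.03, none of them called. CDC45, which bridges MCM2-7 and GINS, read 6.70 and 6.78 with EN2, against 6.92 and 7.25 with vector, with no overlap (log2 change −0.34, adjusted p = 0.214). In PC9 CDC45 read 7.56 and 7.85, against 8.05 and 7.90, again with no overlap, and its change of −0.28 was the lowest of the members there (adjusted p = 0.784). All 3 probe sets of CDC45 were negative in both lines, but on the 2 dimmer ones the groups overlapped in each line. MCM10, an activator of the assembled helicase, had the highest A549 change of the members, 0.31 (adjusted p = 0.36).

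PCNA, the sliding clamp that holds the polymerase on DNA, read 11.31 and 11.77 with EN2 in A549, against 11.63 and 11.79 with vector (log2 change −0.17). RFC4, a subunit of the complex that loads the clamp, read 9.08 and 9.42, against 9.34 and 9.52 (log2 change −0.18, adjusted p = 0.458). In each the groups overlapped. In PC9 the 5 clamp and loader genes ran from −0.17 for RFC3 to −0.050 for PCNA.

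PRIM2, the large primase subunit that helps lay down the RNA primer, read 6.51 and 6.62 with EN2 in A549, against 6.75 and 7.19 with vector, with no overlap (log2 change −0.40, adjusted p = 0.172). Without vector replicate 1 the change was −0.62 and was called (adjusted p = 0.0422), without vector replicate 2 it was −0.18 (adjusted p = 0.754), and with the 18S rRNA covariate it was 0.011. The other probe set of PRIM2 gave −0.18. POLD1, the catalytic subunit of the lagging-strand polymerase delta, read 7.62 and 7.78, against 7.81 and 8.01 (log2 change −0.21, adjusted p = 0.292). In PC9 it read 8.37 and 8.46, against 8.61 and 8.54, with no overlap in either line. POLE2, an accessory subunit of polymerase epsilon, read 6.004 and 6.92 with EN2 in A549, against 6.45 and 7.30 with vector, and the groups overlapped (log2 change −0.41, adjusted p = 0.587).

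FEN1, the nuclease that trims flaps of Okazaki fragments, and LIG1, the ligase that seals them, had A549 changes of 0.12 and −0.15. In PC9 LIG1 read 8.40 and 8.85 with EN2, against 8.81 and 8.67 with vector, so the EN2 arrays lay on either side of both vector arrays. RPA2, the middle subunit of the single-strand binding protein, varied little. It read 9.64 and 9.67 with EN2 in A549, against 9.69 and 9.68 with vector, and 9.62 and 9.69 in PC9 with EN2, against 9.72 and 9.75 with vector. The other 2 probe sets of RPA2 had A549 changes of 0.22 and 0.21, the opposite sign, and did not pass. RPA3, the small subunit, had changes of −0.20 in A549 (adjusted p = 0.296) and 0.042 in PC9.

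RRM2, the small subunit of ribonucleotide reductase that is limiting for deoxynucleotides in S phase, read 8.17 and 8.85 with EN2 in A549, against 8.63 and 9.28 with vector (log2 change −0.45 ± 0.23 SE, adjusted p = 0.359). TYMS, the thymidylate synthase, read 9.65 and 9.86, against 9.85 and 10.11 (log2 change −0.22, adjusted p = 0.377). Both overlapped between groups. UHRF1, which guides maintenance methylation to newly copied DNA, read 8.41 and 8.68, against 8.07 and 8.51, the second highest A549 change at 0.26 (adjusted p = 0.495). CHAF1A, the large subunit of the histone chaperone CAF-1, had changes of 0.026 in A549 and −0.14 in PC9. E2F1, an activator of the G1/S genes, read 6.44 and 6.69 with EN2 in A549, against 6.71 and 6.87 with vector, with no overlap (log2 change −0.22, adjusted p = 0.359). In PC9 E2F1 read 7.18 and 7.27, against 7.48 and 7.27, and the higher EN2 array and the lower vector array were equal to the printed decimals (log2 change −0.15). E2F2, a second activator, had a change of −0.11 in A549 and 0.032 in PC9.

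Counted over all members, both EN2 arrays lay below both vector arrays for 6 in A549, where 23.5% of all genes did, and for 6 in PC9, where 15.2% did. CDC45, POLD1, RPA2 and E2F1 were among the 6 in each line, with groups apart by less than the printed decimals for RPA2 in A549 and E2F1 in PC9. Higher in both EN2 arrays than in either vector array were GINS3 and POLA2 in A549, against 24.1% of all genes, and RPA3 in PC9, against 17.7%. The shares of members are near or under those of all genes. For 41 of the 43 in A549 and 40 in PC9, the larger of the 2 gaps within a group exceeded the EN2 change, which was so for 64.5% and 77.7% of all genes.

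The second comparison was replicate by replicate, and there the members moved together. Within the A549 EN2 group, replicate 1 was lower than replicate 2 for 42 of the 43 members, where it was lower for 51.5% of all genes. Within the A549 vector group it was lower for 40 of 43 members, against 48.1% of all genes. Within the PC9 EN2 group replicate 1 was lower for 43 of 43, against 43.9% of all genes, and within the PC9 vector group it was lower for 4 of 43, against 53.1%. The median gap of the members, replicate 1 minus replicate 2, was −0.26 in A549 with EN2 and −0.23 with vector, and −0.26 in PC9 with EN2 and 0.12 with vector. No test applies to 2 single arrays, and genes on the same array are not independent.

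**Figure D2:**
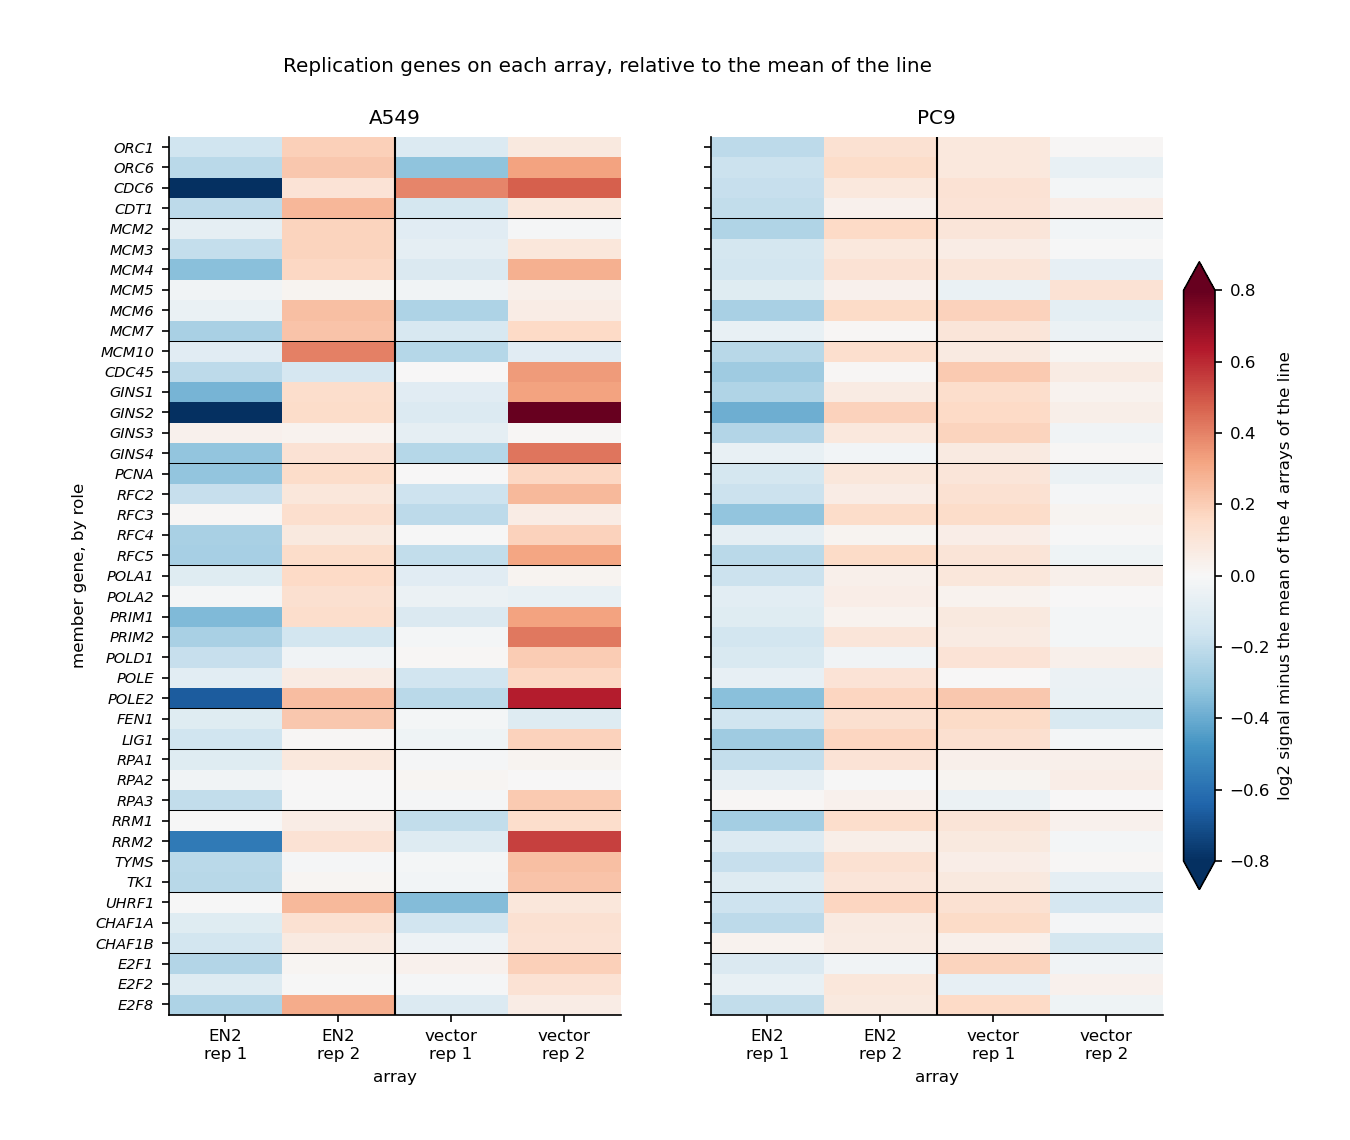
Log2 signal of the 43 replication genes on each array, minus the mean of the 4 arrays of the line, with roles separated by lines and colours capped at 0.8 in either direction. In A549 the replicate 1 columns of both groups are mostly blue and the replicate 2 columns mostly red, and in PC9 replicate 1 with EN2 is the array with the most blue.

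GINS2, POLE2 and RRM2 lay near the end of these gaps in both A549 groups. For GINS2, the gap of −1.06 between the EN2 arrays ranked 2nd lowest among 18244 genes, and its gap of −0.98 between the vector arrays ranked lowest of all. POLE2, with gaps of −0.91 and −0.84, ranked 4th and 7th. RRM2, with gaps of −0.68 and −0.65, ranked 24th and 20th. CDC6 differed from these, with the lowest gap of all genes between the EN2 arrays, −1.09, and a gap of −0.090 between the vector arrays. Among the 100 lowest genes were 7 members for the A549 EN2 arrays and 9 for the vector arrays, with 2 for the PC9 EN2 arrays. The lowest 10% of genes held 30, 27 and 29 members in these 3 groups. In the PC9 vector arrays, where replicate 2 was the lower, the corresponding 10% held 9 members.

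In PC9 the EN2 arrays were furthest apart for GINS2, at 7.68 and 8.26, against 8.23 and 8.12 in the vector arrays. POLE2 read 7.96 and 8.47 with EN2, against 8.51 and 8.24 with vector. RFC3, a clamp loader subunit, read 9.10 and 9.56, against 9.56 and 9.44, and RRM1, the large subunit of ribonucleotide reductase, read 9.93 and 10.35, against 10.31 and 10.24. In each of these and in LIG1, replicate 1 with EN2 was the lowest of the 4 PC9 arrays, while replicate 2 with EN2 read at or above at least 1 vector array. The smallest gaps between the PC9 EN2 arrays were those of RPA3 (−0.021), CHAF1B, the middle subunit of CAF-1 (−0.041), and GINS4, a GINS subunit (−0.043).

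**Figure D3:**
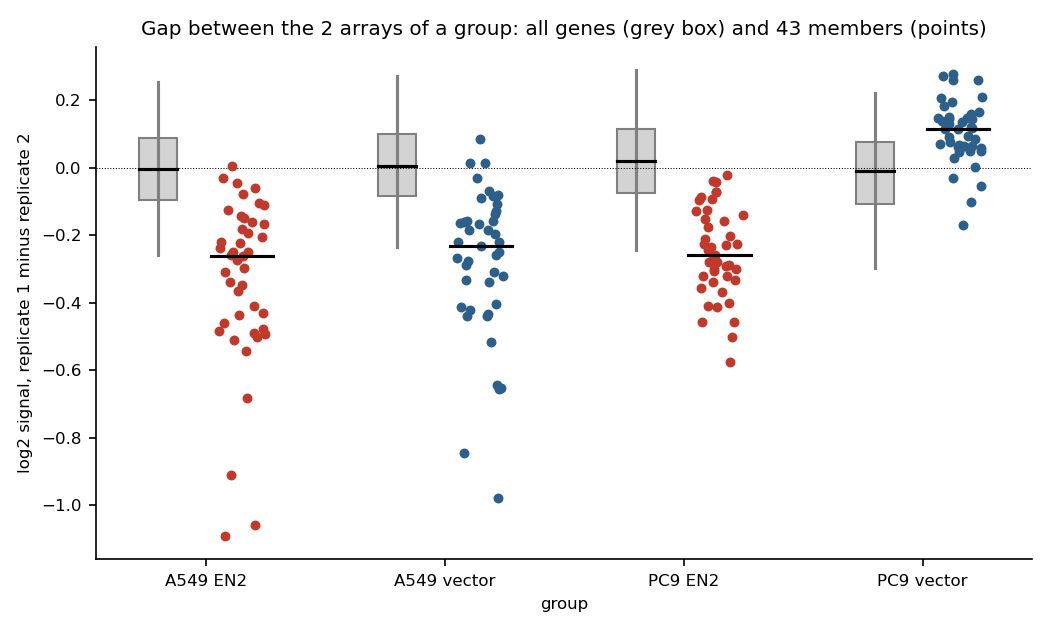
Log2 signal of replicate 1 minus replicate 2 in each group. Grey boxes run from the 25th to the 75th percentile of all 18244 genes with their median, and whiskers the 5th to 95th percentile. Points are the 43 members, with a black bar at their median: all 43 members lie below 0 in the PC9 EN2 group and 42 and 40 do in the A549 EN2 and vector groups, with medians of −0.26, −0.26 and −0.23, while 39 lie above it in the PC9 vector group, with a median of 0.12.

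The EN2 change of the members therefore turned on which arrays were paired. With EN2 replicate 1 against vector replicate 2 in A549, 39 of 43 members were lower and the median was −0.34. With EN2 replicate 2 against vector replicate 1, 37 of 43 were higher and the median was 0.23. Pairing equal numbers gave medians of −0.096 and −0.099, with 31 and 28 of 43 members lower. In PC9, EN2 replicate 1 was lower for 41 of 43 members against either vector array, with medians of −0.26 and −0.16. EN2 replicate 2 was higher for 22 and lower for 21 against vector replicate 1 (median 0.00015), and higher for 36 against vector replicate 2 (median 0.10). The 38 negative members of PC9 thus rested on EN2 replicate 1: without it the median change was 0.060, and without EN2 replicate 2 it was −0.20.

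Some other measures of the arrays moved with these gaps in part. In A549 the 18S rRNA control read 11.66 and 12.12 with EN2, against 12.44 and 12.74 with vector, so replicate 1 was the lower in both groups, as for the members. Over the 4 A549 arrays the orders differed, since the members' median was lowest on vector replicate 1 (7.95, against 8.08 on EN2 replicate 1). In PC9 this control ran from 6.05 to 6.10. The actin control value, 3′ minus 5′ probe set, was 1.29 and 1.03 in the PC9 EN2 arrays, against 1.09 and 1.13 in the vector arrays. It was highest on the PC9 array where the members were lowest. The order of the 4 PC9 arrays by this value was the reverse of their order by the members' median. However, 2 of these medians were nearly equal, 9.5564 with EN2 replicate 2 and 9.55625 with vector replicate 1. The GAPDH control value was 0.050 and 0.040 in the PC9 EN2 arrays, against 0.033 and 0.026 in the vector arrays. It too was highest on EN2 replicate 1, but the other PC9 arrays did not follow the members' order. In the PC9 vector group it was higher on replicate 1, where the members were higher too. In A549 the GAPDH value was −0.049 and −0.063 with EN2, against −0.065 and −0.11 with vector. Replicate 1, where the members were lower, thus had the higher GAPDH value in both A549 groups. In A549 the actin value was 0.98 and 0.88 with EN2, against 0.789 and 0.780 with vector. Within each group of both lines, the actin value was thus higher on the array with the lower members' median. That difference was small in the A549 vector group, and over the 4 A549 arrays the order did not follow the members' median. The part of these measures in the gaps was not tested. In A549 both EN2 arrays lay below both vector arrays in the 18S rRNA signal, so a fit with this signal as a covariate separates it from EN2 only in part. With that covariate, the median A549 change of the members was 0.41, with no member called.

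Other cell cycle genes were set beside the members. Of 33 other replication fork and licensing genes, none was called in either line, and replicate 1 was lower for 27 and 26 of them in the A549 EN2 and vector groups and for 27 in the PC9 EN2 group. Of 23 G2/M and proliferation genes, replicate 1 was lower for 23 and 22 in the A549 groups and for 23 in the PC9 EN2 group. In the PC9 vector group the G2/M genes divided, with 11 lower in replicate 1 and 12 higher, where 39 of the 43 members were higher. Of 25 E2F, RB and S-phase regulators none was called in either line. Replicate 1 was lower for 15 (60%) and 13 (52%) of them in the A549 EN2 and vector groups, against 51.5% and 48.1% of all genes. In the PC9 EN2 group it was lower for 20. Of 11 nucleotide synthesis and histone supply genes, replicate 1 was lower for 6 and 8 in the A549 groups and for 10 in the PC9 EN2 group.

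Across these lists, only 2 genes were called with EN2, both in A549. CDK1, the kinase that drives entry into mitosis, rose, with 9.70 and 9.82 in the EN2 arrays, against 9.23 and 9.18 in the vector arrays (log2 change 0.55, limma adjusted p = 0.0111). It was the sole call among 23 G2/M genes. CTPS1, a CTP synthase, rose, with 11.66 and 11.41, against 10.995 and 10.985 (log2 change 0.54, adjusted p = 0.0156), as the sole call among 11 nucleotide and histone supply genes. Neither passed in PC9, with changes of −0.055 for CDK1 and −0.046 for CTPS1. The change of CDK1 was 0.39 with the mean of all probe sets, 0.53 without vector replicate 2, 0.59 without the outer arrays of the 18S rRNA signal and 0.63 with that covariate, and that of CTPS1 was 0.37, 0.54, 0.41 and 0.25. Both calls ended with the mean of all probe sets (limma adjusted p = 0.18 and 0.123), on the A549 arrays alone and with the 18S rRNA covariate. They also ended without vector replicate 2 and without the outer arrays of the 18S rRNA signal, and that of CTPS1 without EN2 replicate 1. Leaving out the outer arrays left 1 A549 array with EN2 against 1 with vector.

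The third comparison set A549 with vector against PC9 with vector and asked how the lines differed in these genes. The replication genes were lower in A549 almost throughout. Of the 43 members, 39 were lower in A549 (limma adjusted p below 0.05), against 29.7% of all genes. CDC6 and E2F2 were higher, against 46% of all genes, and GINS2 and RPA2 did not pass. In either direction 75.8% of all genes were called. The median log2 difference of the members, A549 vector minus PC9 vector, was −1.08, while that of all genes was 0.17. Whether the lines were normalised together is not stated, so their scale relative to each other is in doubt. With quantile normalisation over all arrays 39 members were lower and 2 higher, against 36.8% and 33.8% of all genes, and with median centring 40 were lower and none higher, against 40.7% and 31.9%. The share of all calls that were higher in A549 was 60.8%, and 47.9% and 43.9% under these scalings. All 4 A549 arrays lay below all 4 PC9 arrays for 37 members, against 30.1% of all genes. Only E2F2 had all 4 A549 arrays above, against 47%, and CDC6, MCM10, GINS2, PRIM2 and RPA2 overlapped between the lines.

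E2F8, an atypical E2F that represses E2F targets later in S phase, differed most. It read 5.77 and 5.93 in the A549 vector arrays, against 9.20 and 9.01 in the PC9 vector arrays, a log2 difference of −3.25 ± 0.17 SE (adjusted p = 8.9e-08). Its other probe sets gave −4.05 and −4.69. RRM2 read 8.63 and 9.28 in A549 vector, against 11.36 and 11.26 in PC9 vector, a difference of −2.36 (adjusted p = 7.5e-06). MCM6 read 7.91 and 8.22, against 10.27 and 10.01 (−2.08, adjusted p = 1.57e-06), and its other probe sets gave −2.30 and −2.47. All 6 MCM2-7 subunits were lower in A549, from −2.08 for MCM6 to −0.40 for MCM5. All 7 polymerase and primase genes were lower, from −1.91 for POLA2, the regulatory subunit of polymerase alpha, to −0.39 for PRIM2. All 5 clamp and loader genes and all 4 nucleotide supply genes were lower too.

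CDC6 went the other way, with 10.30 and 10.39 in A549 vector, against 9.70 and 9.57 in PC9 vector, a difference of 0.71 ± 0.27 SE (adjusted p = 0.0337). The A549 EN2 arrays, at 8.93 and 10.02, lay on either side of the PC9 range, and the call ended without any 1 of the 4 vector arrays (adjusted p from 0.0774 to 0.132). Its second probe set gave 0.39 and was not called (adjusted p = 0.231). E2F2 read 7.39 and 7.52 in A549 vector, against 7.05 and 7.15 in PC9 vector (0.36, adjusted p = 0.00604), but median centring ended the call (0.12). Its dimmer probe set gave −0.48, but read only 4.42 and 4.56 in A549 vector, near the spike-in background of 4.42. CHAF1B gave −0.42 on the brighter and 1.35 on the dimmer probe set, which lay below the spike-in background in PC9. RPA2 read 9.69 and 9.68, against 9.72 and 9.75, with a difference of −0.052 (adjusted p = 0.468), which became −0.29 and was called with median centring. Tested probe set by probe set, 83 of the 104 were lower and 5 higher in A549, where 74.4% of all 45284 probe sets were called in either direction. None of the 104 was called for EN2, against 2.02% of all probe sets in A549 and 0.278% in PC9.

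**Figure D4:**
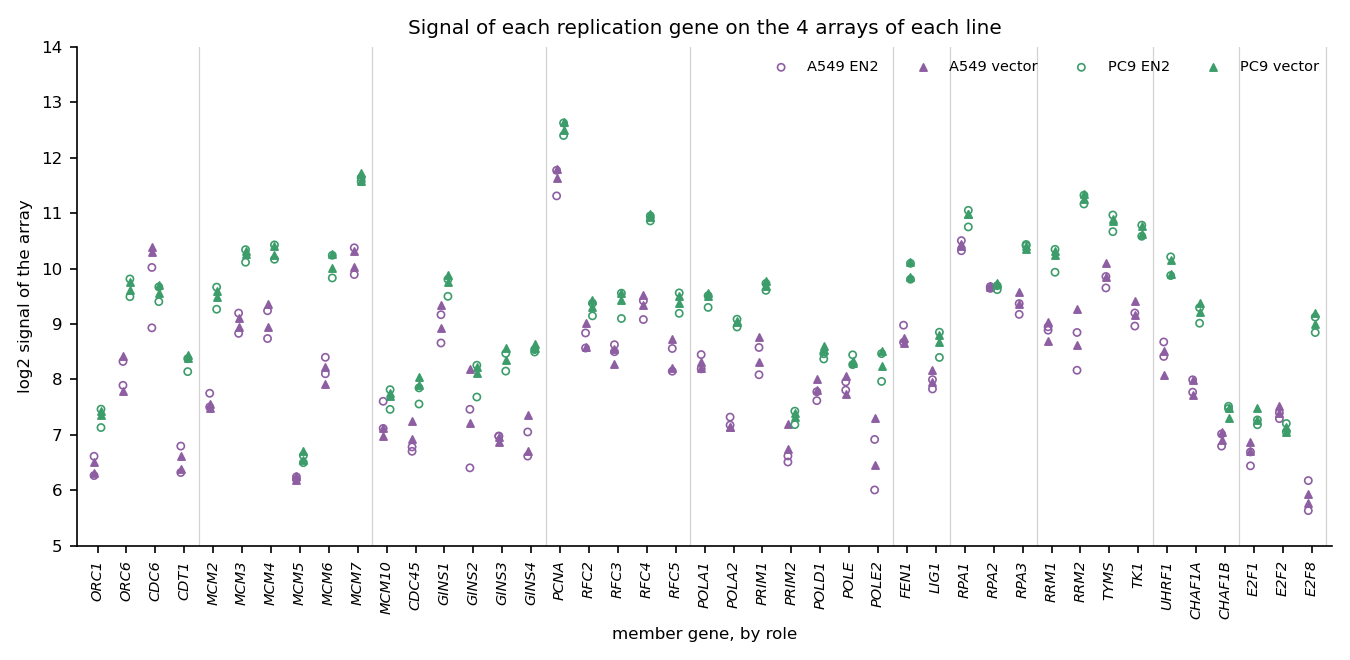
Log2 signal of each replication gene on the 4 arrays of A549 (purple) and PC9 (green), EN2 as open circles and vector as filled triangles, ordered by role. The A549 arrays lie below the PC9 arrays for 37 of 43 genes, furthest for E2F8, and CDC6 and E2F2 are the genes whose A549 vector arrays lie above.

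The other cell cycle lists showed the same direction between the vector controls. Of 23 G2/M genes 19 were lower and 1 higher in A549, with a median of −1.10. Of 33 other replication genes 21 were lower and 7 higher, with a median of −0.85. Of 25 E2F, RB and S-phase regulators 14 were lower and 6 higher, with a median of −0.30. Since the lines also differed in medium, and the labels do not give their density or growth rate, the part of these in the difference was not tested.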

How the data were processed

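Total RNA of 8 samples in 4 groups of 2 was hybridised to single-colour arrays. The authors deposited log2 values that RMA had produced, per the submitters' processing notes. Neither its version nor whether all arrays were normalised in 1 run is given in the sources used here. Precision is limited by the few arrays. Probe sets took their gene from the platform annotation, with symbols of GRCh38.p14: of 49495, 45284 carried 1 symbol, 1333 several and 2878 none, and 45214 matched by Entrez identifier. The probe set with the highest mean stood for each of 18244 genes, with no filter on dim probe sets. The 95th percentile of 100 ERCC spike-in probe sets, 4.42 in A549 and 3.94 in PC9, served as background.

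All 8 arrays entered 1 fit of 4 group means with limma 3.58.1 in R 4.3.3 (lmFit, then eBayes with an intensity trend, residual degrees of freedom 4). The Benjamini-Hochberg adjustment of two-sided p-values ran over all genes, with calls at adjusted p below 0.05. With 2 arrays against 2, the smallest p of an exact permutation test is 0.333. The method was tested on simulated data. Members and gene lists were chosen with earlier results of these data known. Named genes were EN2, the 2 members of each role with the smallest p in either line, the 5 largest and 3 smallest gaps between the PC9 EN2 arrays, the 3 highest and 3 lowest differences between vector controls, and called genes of the other lists; any further gene was named after its values were seen. Alternatives were other prior variances, normalisations, probe set rules, a filter on dim genes, the replicate number as a block, the 18S rRNA signal, centred within each line, as a covariate, the arrays of a line alone, and leaving out arrays. The centring of the 18S rRNA signal was chosen after an uncentred fit had extrapolated for the vector comparison, and it leaves the EN2 comparisons as they were. The tests of every probe set and the block within each line were also added after seeing the data.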

Additional observations from a re-analysis of the deposited data

Results flagged for a closer look

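Of the genes on the fixed lists, 3 epithelial markers differed between the lines in their EN2 change by limma's test of the difference, and no replication gene did. The difference, A549 minus PC9, was −1.13 for CDH1, the gene of E-cadherin (adjusted p = 0.00729, with 8.49 and 8.64 in A549 with EN2, against 9.72 and 9.65 with vector, and 10.82 and 10.78 in PC9 with EN2, against 10.65 and 10.93 with vector), −0.71 for EPCAM (adjusted p = 0.0189) and −0.65 for KRT19 (adjusted p = 0.039). EPCAM was dim in A549, at 5.19 and 5.34 with EN2, against 6.05 and 6.03 with vector. In PC9 it was far brighter, at 11.99 and 11.96 with EN2, against 12.05 and 12.03 with vector. The 3 calls depended on the arrays and settings. All 3 ended with the 18S rRNA covariate, a signal that was lower on both A549 EN2 arrays than on both A549 vector arrays. They also ended when the outer A549 arrays by that signal were left out, which left 1 array against 1 in A549. The differences were then −1.09 for CDH1, −0.65 for EPCAM and −0.56 for KRT19. Over the 18 other settings run, these among them, the difference was called in 15 for CDH1 (between −1.26 and −0.99), in 10 for EPCAM (between −0.79 and −0.57) and in 9 for KRT19 (between −0.76 and −0.49). The CDH1 call also ended without PC9 EN2 replicate 1 (adjusted p = 0.0515).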

How the results depend on the processing

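With EN2 no member was called higher in either line under any setting run, and none lower in PC9. In A549, 1 member was lower without EN2 replicate 2 (CDC6) and 1 without vector replicate 1 (PRIM2), so leaving out an array gave 0 to 1. For the difference of the lines it gave 0 to 1 lower (CDC6). Over the fits without 1 array the median change lay between −0.22 and 0.055 in A549, −0.20 and 0.060 in PC9, −0.15 and 0.15 for the difference, and −1.23 and −0.94 for the vectors. With the 18S rRNA covariate, only partly separable from EN2 in A549, the medians were 0.41 in A549, 0.48 for the difference and −1.35 for the vectors. Leaving out the lowest and highest A549 arrays of that signal gave 0.23 in A549 and 0.31 for the difference. That setting leaves EN2 replicate 2 against vector replicate 1 in A549, so its 0.23 is the value of that pair given above and no separate result. The cause was not tested. For the vectors, median centring gave a median of −1.32. Members higher in A549 vector numbered 2, but 0 with median centring or the covariate, 1 with the robust prior, the mean of all probe sets or without the outer arrays, and 1 to 2 without an array; 36 to 40 were lower. With the mean of all probe sets E2F2 (−0.060) and CHAF1B (0.47) changed sign. The replicate block left the counts of members called with EN2 at 0 and the A549 median at −0.072, and moved the calls among all genes in A549 to 872 (496 as reported). Same-numbered arrays deviated together at r = 0.35 in A549 and 0.066 in PC9 across all genes, and at 0.54 and −0.41 across the 43 members, and the labels do not pair them. A block within each line, chosen after seeing the data, called 3 members lower in A549 (CDC6, GINS2 and RRM2) and 1 higher among the vectors. Calls among all genes ran over these settings from 20 to 1393 in A549, from 19 to 126 in PC9 (67 as reported) and from 0 to 426 for the difference (143 as reported). EN2 itself lost its A549 call with the 18S rRNA covariate (1.11, limma adjusted p = 0.13). It also lost the call without the outer arrays, with 1 array against 1 and a change of 1.15.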
